A study of Mus musculus with 6 samples.

Results

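The 7 genes described here encode Siglecs, the sialic acid-binding immunoglobulin-like lectins of the mouse: Siglec1, Cd33, Siglece, Siglecf, Siglecg, Siglech and Siglec15. Every probe named for one of them was taken from a one-colour expression array with 37325 gene names, and the set itself was selected on its measured signal in the 3 groups, with earlier results of these data known. Levels and differences of the members are therefore given as a description without p-values. The array carried 14 probes for the 7 genes among 56605 non-control probes, and 9 of these probes, for 6 of the genes, passed the background filter.

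Siglecs are surface receptors of leukocytes that bind sialic acids at the ends of sugar chains, on other cells or on their own membrane. Of the Cd33-related branch, Siglece, Siglecf and Siglecg carry tyrosine motifs in the cytoplasmic tail, which recruit the phosphatases Ptpn6 (SHP-1) and Ptpn11 (SHP-2) and dampen activation, whereas the tail of mouse Cd33 differs from that of the human inhibitory receptor. Siglech and Siglec15 instead pair with the adaptor Tyrobp (DAP12), whereas Siglec1, also called sialoadhesin, has a long extracellular part and serves in adhesion and in the capture of sialylated particles. In the mouse, Siglec1 is known from macrophages, Siglece from neutrophils, monocytes and macrophages, Siglecf from eosinophils and alveolar macrophages, Siglecg from B cells, Siglech from plasmacytoid dendritic cells and Siglec15 from osteoclasts.

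All cells were grown in GM-CSF from bone marrow (BM) of female C57BL/6J mice aged 6 to 8 weeks. MDSC (conv.), conventional myeloid-derived suppressor cells, came from unseparated marrow after 4 days with 40 ng/mL GM-CSF, and 1 label field of these samples also names dendritic cells. The 6G- BM-MDSC were grown in the same way from marrow from which Ly-6G+ cells, mainly neutrophils and their precursors, had first been removed, a step that does not keep Ly-6G+ cells from appearing again in culture. DCs, dendritic cells, were grown for 8 days with 20 ng/mL GM-CSF, so that dose and time differ together with the cell type. Each group had 2 arrays, and the labels number them without saying whether they came from separate cultures. Every group was a bulk culture with no sort before RNA extraction given for the arrays, so fewer cells of a type and less RNA per cell cannot be told apart in any value below. Both MDSC groups lay in array row 1 of a single slide and DCs in row 2, and row and the contrast with DCs cannot be told apart.

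Levels are log2 of the background-subtracted intensity relative to the 75th percentile of the same array, so 0 is the level of a fairly bright probe and each unit is a doubling. Whether a probe stood well above background is the flag set by the scanner's image software. Arrays of 1 group correlated at 0.995 to 0.996, and 55.6% to 59.9% of probes were well above background on an array. The labels held against their markers in the main: 10 of 12 neutrophil markers were higher in each MDSC group than in DCs, and 9 (MDSC (conv.)) and 8 (6G- BM-MDSC) of 11 dendritic cell markers were lower. Against the labels, 1 and 2 of these 11 were called higher, and the highest difference on the list was 1.21 and 1.59. For example Retnlg, a gene of neutrophils, was 6.34 ± 0.11 (SE) higher on the log2 scale in MDSC (conv.) than in DCs (limma adjusted p = 0.0002), and Zbtb46, a transcription factor of conventional dendritic cells, was lower by a log2 difference of -1.45 ± 0.09 (limma adjusted p = 0.0009).

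For 3 of the genes, different probes gave different pictures, and the sequences of those probes are shown because they decide what can be said about the gene. They are the array's own probe sequences, read 5′ to 3′ along the transcript, with positions on the mouse genome build mm9. The RNA was primed at its poly(A) tail before labelling. Only the first or last 30 bases are printed for probes that may lie in an untranslated part, which the files do not annotate. The whole 60 bases are printed for 2 probes that start early in the transcript and have a frame without a stop codon, though whether they are coding is not annotated. Capitals mark an AAAG repeat.
Siglec1, from base 1417, chr2:130909693-130909752, minus strand: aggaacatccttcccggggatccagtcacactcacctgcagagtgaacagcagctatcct
Siglec1, from base 5552, chr2:130897963-130898022, minus strand, first 30: gcttggaaacaagctatcccatttacaatt
Siglec1, from base 6190, chr2:130895093-130895152, minus strand, first 30: ttttctccattccccaagtgttgcctttga
Cd33, from base 1488, chr7:50783849-50783908, minus strand, first 30: cttgcccatgagtaagtacatgtatgaagg
Cd33, from base 2318, chr7:50785722-50785781, minus strand, first 30: aactcttatgactgtcagtcaagacaccaa
Siglech, from base 497, chr7:63024045-63024269, plus strand, across an exon junction: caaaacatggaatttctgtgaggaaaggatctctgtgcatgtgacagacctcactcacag
Siglech, from base 1695, chr7:63028608-63028667, plus strand, first 30: attggattaatccagtgtgtgaacagtctt
Siglech, from base 2281, chr7:63034088-63034147, plus strand, last 30: tctgtctcAAAGAAAGAAAGAAAGAAAGAA

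The last Siglech probe ended in 5 copies of AAAG. It shared a run of at least 20 bases with 6 other probes on the array, while each of the other 13 Siglec probes shared such a run with none. Such runs covered 50 of the 60 bases of the last Siglech probe, so the shared letters reached beyond the AAAG copies. Starts are counted along the transcript record a probe was made from. The Siglecf probes lay at chr7:50614417-50614476 and chr7:50614768-50614827 on the plus strand, the Siglecg probes at chr7:50667115-50667174 and chr7:50668051-50673194 on the plus strand, and the Siglece probe at chr7:50906669-50906728 on the minus strand.

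**Figure D1:**
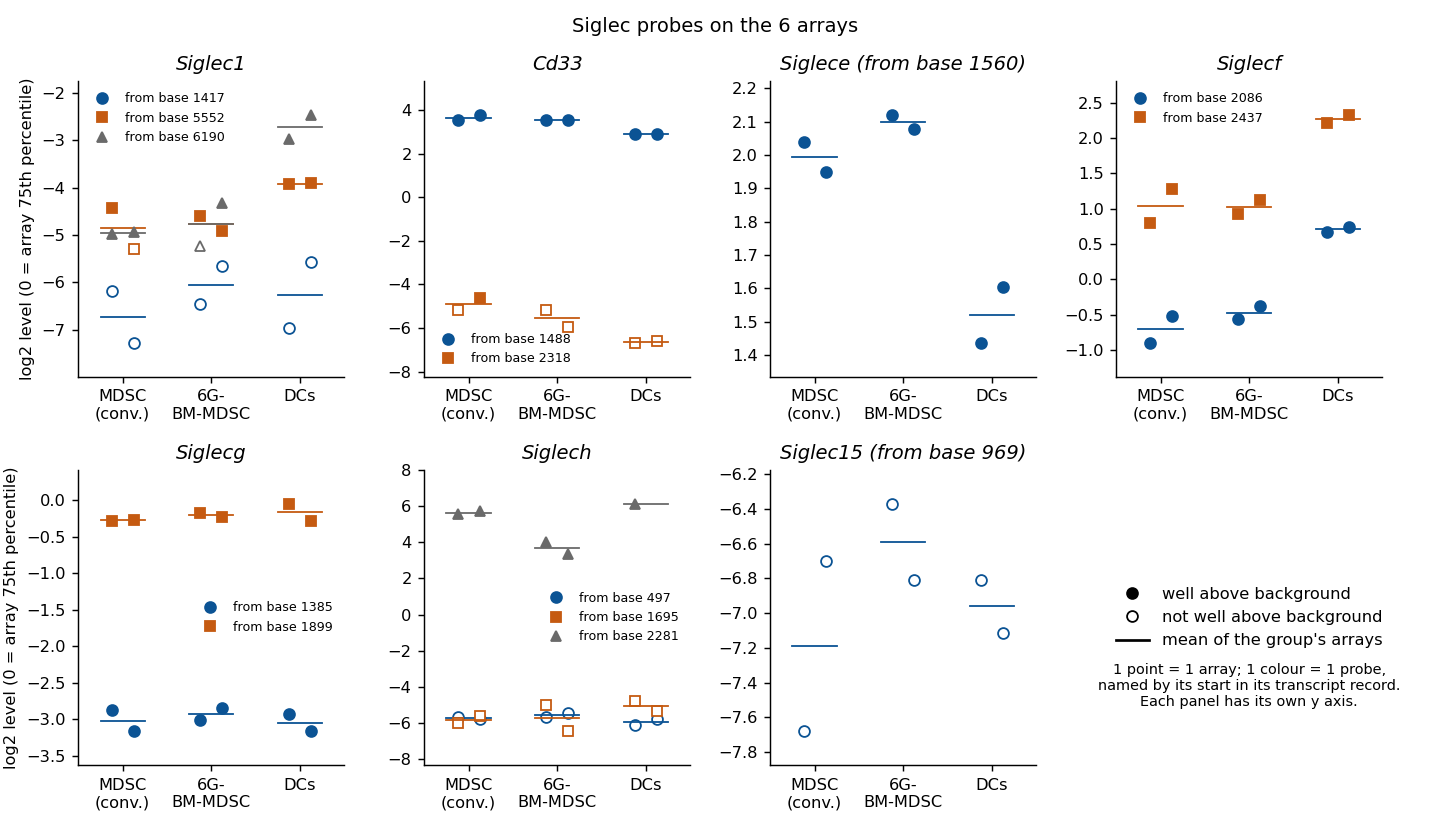
Log2 level of each of the 14 Siglec probes on the 6 arrays, by group, relative to the 75th percentile of the array. Each point is 1 array, filled where the probe was well above background, and the lines are group means. Cd33 and Siglece sat lower in DCs than in either MDSC group, Siglec1 and Siglecf sat higher in DCs, Siglecg did not separate the groups, Siglech was read by 1 of 3 probes, and Siglec15 was not well above background on any array.

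Cd33 and Siglece stood higher in MDSC (conv.) and 6G- BM-MDSC than in DCs, by less than 2-fold. The main Cd33 probe, from base 1488, had levels of 3.54 and 3.76 on MDSC (conv.) arrays, 3.54 and 3.54 on those of 6G- BM-MDSC and 2.90 and 2.91 on those of DCs. All 4 MDSC arrays lay above both DC arrays, and the MDSC groups overlapped each other. The log2 difference from DCs was 0.74 ± 0.10 (SE) for MDSC (conv.), a 1.67-fold higher signal, and 0.63 ± 0.10 for 6G- BM-MDSC, a 1.55-fold higher signal. The second Cd33 probe, made from another cDNA, was well above background on 1 of the 6 arrays, MDSC (conv.) replicate 2, and gives no fold.

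Siglece, the mouse Siglec best known from neutrophils and monocytes, had levels of 2.04 and 1.95 on MDSC (conv.) arrays, 2.12 and 2.08 on those of 6G- BM-MDSC and 1.44 and 1.60 on those of DCs. Both DC arrays lay below all 4 MDSC arrays. Its log2 difference from DCs was 0.47 ± 0.09 for MDSC (conv.) and 0.58 ± 0.09 for 6G- BM-MDSC, which are 1.39-fold and 1.49-fold higher signals. The 6G- BM-MDSC arrays lay just above the MDSC (conv.) arrays, with a difference of 0.10 ± 0.09.

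Siglecf went the other way and was lower in both MDSC groups. Its brighter probe, from base 2437, had levels of 0.80 and 1.28 on MDSC (conv.) arrays, 0.93 and 1.12 on those of 6G- BM-MDSC and 2.21 and 2.32 on those of DCs. The second probe, from base 2086, had levels of -0.90 and -0.51, then -0.57 and -0.38, and 0.68 and 0.74 in the same order. On either probe both DC arrays were above every MDSC array, and the MDSC groups overlapped. For the brighter probe the log2 difference from DCs was -1.23 ± 0.18 for the conventional cells and -1.24 ± 0.18 for the depleted ones, signals 2.34-fold and 2.37-fold lower. The second probe gave -1.41 ± 0.16 and -1.18 ± 0.16.

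Siglec1 was dim on every probe and lower in both MDSC groups than in DCs. The probe nearest to the 3′ end, from base 6190, had levels of -4.99 and -4.93 on MDSC (conv.) arrays, -5.22 and -4.32 on those of 6G- BM-MDSC and -2.98 and -2.47 on those of DCs, and it was not well above background in 6G- BM-MDSC replicate 1. The probe from base 5552 had levels of -4.43 and -5.29, then -4.60 and -4.92, and -3.93 and -3.89, and it was not well above background in MDSC (conv.) replicate 2. Both probes placed the 2 DC arrays above all MDSC arrays. On the first of these probes MDSC (conv.) differed from DCs by -2.23 ± 0.34 on the log2 scale and 6G- BM-MDSC by -2.05 ± 0.34. The differences were -0.95 ± 0.32 and -0.85 ± 0.32 on the second.

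The probe from base 1417 of Siglec1 was not well above background on any array, with levels between -7.27 and -5.57, so the contrast rests on the 3′ part of the transcript. With another background correction (normexp, which adds an offset before the logarithm) the differences of the gene shrank to -0.78 and -0.66. As the mean of the 2 probes that passed, they were -1.59 and -1.45.

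Siglecg, which shares with Cd22 the role of damping B cell receptor signals, did not separate the groups. Its brighter probe had levels of -0.28 and -0.27 on MDSC (conv.) arrays, -0.18 and -0.22 on those of 6G- BM-MDSC and -0.05 and -0.28 on those of DCs. DC arrays lay on both sides of the MDSC arrays. The log2 difference from DCs was -0.11 ± 0.10 for MDSC (conv.) and -0.03 ± 0.10 for 6G- BM-MDSC. The dimmer probe gave 0.03 ± 0.15 and 0.12 ± 0.15, again with overlapping arrays.

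Siglech, the receptor that marks mouse plasmacytoid dendritic cells, could be read on the repeat-bearing probe alone. That probe had levels of 5.56 and 5.72 on MDSC (conv.) arrays, 4.01 and 3.37 on those of 6G- BM-MDSC and 6.13 in DCs replicate 1, and the spot of DCs replicate 2 was marked as an outlier by the image software and left out of the fit. Both 6G- BM-MDSC arrays were below all other arrays. The log2 difference of 6G- BM-MDSC was -2.44 ± 0.30 from DCs, a 5.44-fold lower signal, and -1.95 ± 0.25 from MDSC (conv.), a 3.85-fold lower signal. For MDSC (conv.) against DCs it was -0.50 ± 0.30. With the marked spot kept, at 5.49, the differences from DCs were -2.12 and -0.18.

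The other Siglech probes were not well above background on any of the 6 arrays, including the probe from base 497. Without the repeat-bearing probe, an alternative added after seeing the data, Siglech was not measured at all. Of the 6 probes that shared a run with it, the one for Samd11 had levels of 5.83 and 5.45 on MDSC (conv.) arrays, 5.46 and 5.53 on those of 6G- BM-MDSC and 5.96 and 5.95 on those of DCs. The one for Coro2a had 2.64 and 2.59, then 2.59 and 2.71, and 2.45 and 2.35. For Samd11, Coro2a and Bbs1 the MDSC groups overlapped. For Syne2, both 6G- BM-MDSC arrays (-2.76 and -2.86) lay below both MDSC (conv.) arrays (-2.57 and -2.37). Chat had the same order but was well above background on only 4 of the 6 arrays. Ulk3 went the other way, with 1.12 and 1.31 on 6G- BM-MDSC arrays against 0.94 and 0.98 on those of MDSC (conv.). Levels of other probes do not show what the Siglech spot bound. How much of the Siglech signal came from other transcripts with the same letters was not tested.

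Siglec15, an osteoclast receptor that pairs with Tyrobp, was not well above background on any array. Its single probe had levels between -7.68 and -6.37, with overlapping groups. It was not tested and is not counted among the 6 genes below.

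**Figure D2:**
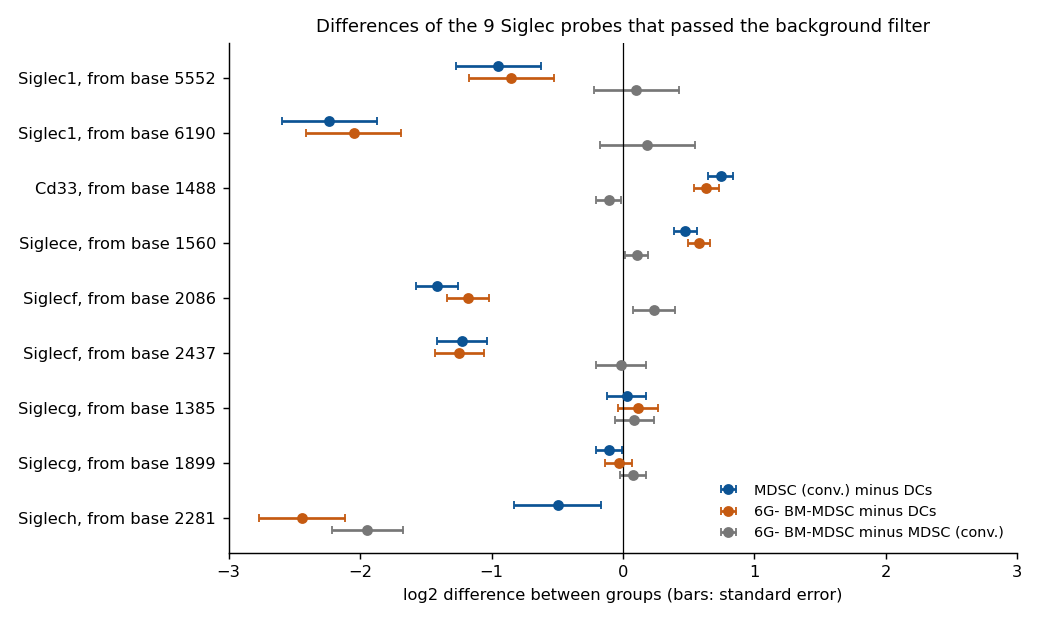
Log2 difference between groups (x axis) for the 9 Siglec probes that passed the background filter, with bars for the standard error of a fit to single probes, which differs slightly from that of the fit to genes given in the text. Both comparisons with DCs use the same 2 DC arrays. The Cd33 and Siglece probes lie right of 0 and the Siglec1 and Siglecf probes left of 0 in both comparisons with DCs, and the Siglech probe is far from 0 between the 2 MDSC groups at -1.95.

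In the fit over 21865 genes, with p adjusted by Benjamini-Hochberg, 4 of the 6 measured Siglecs passed the threshold for MDSC (conv.) against DCs: Cd33 and Siglece higher, Siglec1 and Siglecf lower. Over the whole array 13.4% of genes were called higher and 15.8% lower in this comparison. For 6G- BM-MDSC against DCs 5 of 6 passed, the same 4 and Siglech, with 15% of all genes called higher and 17.8% lower. Because the members were selected on these contrasts, nothing is read from these counts. The count fell to 2 for MDSC (conv.) against DCs without either MDSC (conv.) array, and to 3 for 6G- BM-MDSC against DCs without 6G- BM-MDSC replicate 2 or DCs replicate 1. Without DCs replicate 1, Siglech had no value in DCs, as its other DC spot was left out, and could not be called. The median log2 difference of the 6 genes was -0.30 and -0.64 (-0.03 and -0.04 over all genes), and nothing is read from it for the same reason. In each comparison 2 of the 6 lay above 0 and 4 below. Siglech, on the repeat-bearing probe, had -0.50 and -2.44.

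Between the 2 MDSC groups no Siglec was called by limma (1 passed an unadjusted p by the methods' t-test), and 0.0137% of all genes were. The array-wide count was 3 genes at the adjusted threshold and 2358 at an unadjusted p under 0.05. Siglech had the largest difference of the 6 measured Siglecs there, -1.95, and the others lay between -0.11 and 0.19. With a prior variance that depends on intensity, 1 Siglec was called in this comparison, and without either DC array none was.

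The other Siglec genes of the mouse outside the set, Cd22 and Mag, were not called against DCs in either MDSC group. Cd22, an inhibitory receptor of B cells, had a log2 difference of 0.01 ± 0.18 (limma adjusted p = 0.98) for MDSC (conv.) and one of -0.20 ± 0.18 (limma adjusted p = 0.43) for 6G- BM-MDSC. Mag, a Siglec of myelin, had 0.12 ± 0.15 (limma adjusted p = 0.58) and 0.03 ± 0.15 (limma adjusted p = 0.90).

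Among 13 genes through which Siglecs signal, 3 were higher and 2 lower in MDSC (conv.) than in DCs, and 4 were higher and 3 lower in 6G- BM-MDSC. The whole-array shares called higher and lower were 13.4% and 15.8% for MDSC (conv.), and 15% and 17.8% for 6G- BM-MDSC. These shares stand beside the counts of this list and of the lists that follow. Hcst (DAP10), an adaptor that works beside Tyrobp, was higher by 0.96 ± 0.14 (limma adjusted p = 0.009) and 1.27 ± 0.14 (limma adjusted p = 0.004). The kinases Fyn and Src, which phosphorylate receptor tails, were lower: Fyn had -0.81 ± 0.11 (limma adjusted p = 0.008) and -1.01 ± 0.11 (limma adjusted p = 0.004), and Src had -1.34 ± 0.11 (limma adjusted p = 0.002) and -0.96 ± 0.11 (limma adjusted p = 0.005).

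The partners named in the background were added to this account for their role, after their values were seen. Ptpn6, the phosphatase that the inhibitory Siglecs recruit, was higher by 0.38 ± 0.08 (limma adjusted p = 0.027) for MDSC (conv.) and by 0.47 ± 0.08 (limma adjusted p = 0.014) for 6G- BM-MDSC. Ptpn11 had differences of 0.14 ± 0.08 and 0.09 ± 0.08, neither of them called. Tyrobp, the adaptor of Siglech and Siglec15, was higher in 6G- BM-MDSC by 0.36 ± 0.09 (limma adjusted p = 0.042) and had a difference of 0.33 ± 0.09 in MDSC (conv.) (limma adjusted p = 0.056).

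Of 17 sialyltransferases measured, the enzymes that build Siglec ligands, 2 were higher and 4 lower in each MDSC group than in DCs. St6gal1, which adds sialic acid in the alpha-2,6 linkage that Cd22 binds, had levels of 0.07 and -0.13 on MDSC (conv.) arrays, -0.17 and -0.28 on those of 6G- BM-MDSC and 0.93 and 1.12 on those of DCs. It was lower in both MDSC groups, with differences of -1.05 ± 0.12 (limma adjusted p = 0.004) and -1.25 ± 0.12 (limma adjusted p = 0.003). St6galnac6 was lower too, by differences of -0.90 ± 0.15 and -1.27 ± 0.15 (limma adjusted p = 0.014 and 0.005). St3gal6, which adds it in alpha-2,3 linkage, was higher by 1.45 ± 0.31 and 1.77 ± 0.31 (limma adjusted p = 0.026 and 0.014). St3gal3, another alpha-2,3 enzyme, named after its values were seen, was lower, with -0.93 ± 0.08 and -0.88 ± 0.08 (limma adjusted p = 0.002 and 0.003). St3gal1, named likewise, was lower for MDSC (conv.), with -0.41 ± 0.08 (limma adjusted p = 0.018), and had -0.25 ± 0.08 for 6G- BM-MDSC (limma adjusted p = 0.060). St3gal5, also named likewise, was higher in both, with 0.43 ± 0.11 and 0.47 ± 0.11 (limma adjusted p = 0.043 and 0.032). St6galnac2 was lower in 6G- BM-MDSC, with -1.28 ± 0.27 (limma adjusted p = 0.023), and had -0.42 ± 0.27 in MDSC (conv.) (limma adjusted p = 0.29).

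Of 8 genes of sialic acid synthesis and breakdown, 2 were higher in each MDSC group and none was lower. These were Npl, the lyase that breaks down free sialic acid, at 1.30 ± 0.11 and 1.25 ± 0.11 (limma adjusted p = 0.002 for both), and Cmas, which activates sialic acid for transfer, at 0.55 ± 0.12 and 0.48 ± 0.12 (limma adjusted p = 0.026 and 0.034). Cmah, which converts the acetylated to the glycolyl form of sialic acid, had -0.03 ± 0.11 and -0.08 ± 0.11, and Nans, the synthase, had -0.07 ± 0.09 and -0.14 ± 0.09, none of them called.

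Of 6 sialidase and O-acetylation genes, Casd1 was higher and Siae lower in each MDSC group, and the other 4 were not called. Casd1 adds and Siae removes O-acetyl groups on sialic acid, which alter Siglec binding. Casd1 differed from DCs by 0.49 ± 0.09 and 0.56 ± 0.09 (limma adjusted p = 0.018 and 0.012), and Siae by -0.81 ± 0.11 and -0.80 ± 0.11 (limma adjusted p = 0.008 for both). The lysosomal sialidase Neu1 had 0.59 ± 0.32 and 0.23 ± 0.32 and was not called.

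Of 5 proteins that carry sialylated Siglec ligands, Cd24a, bound by Siglecg, was lower in both MDSC groups, with -0.49 ± 0.09 and -0.42 ± 0.09 (limma adjusted p = 0.018 and 0.026). Spn (CD43), a ligand of Siglec1, was lower in 6G- BM-MDSC alone of the called comparisons, with -0.30 ± 0.07 (limma adjusted p = 0.030) against -0.05 ± 0.07 in MDSC (conv.) (limma adjusted p = 0.62). Over the 5 lists together, 8 genes were higher and 8 lower of 49 in MDSC (conv.) against DCs, and 9 were higher and 10 lower in 6G- BM-MDSC. Of all genes, 13.4% were called higher and 15.8% lower in the first comparison, and 15% and 17.8% in the second. Beside these shares nothing is read from the list counts. The median difference of the 49 genes was 0.00 and 0.02, and between the MDSC groups none of the 49 was called by limma (2 passed an unadjusted p by the methods' t-test).

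**Figure D3:**
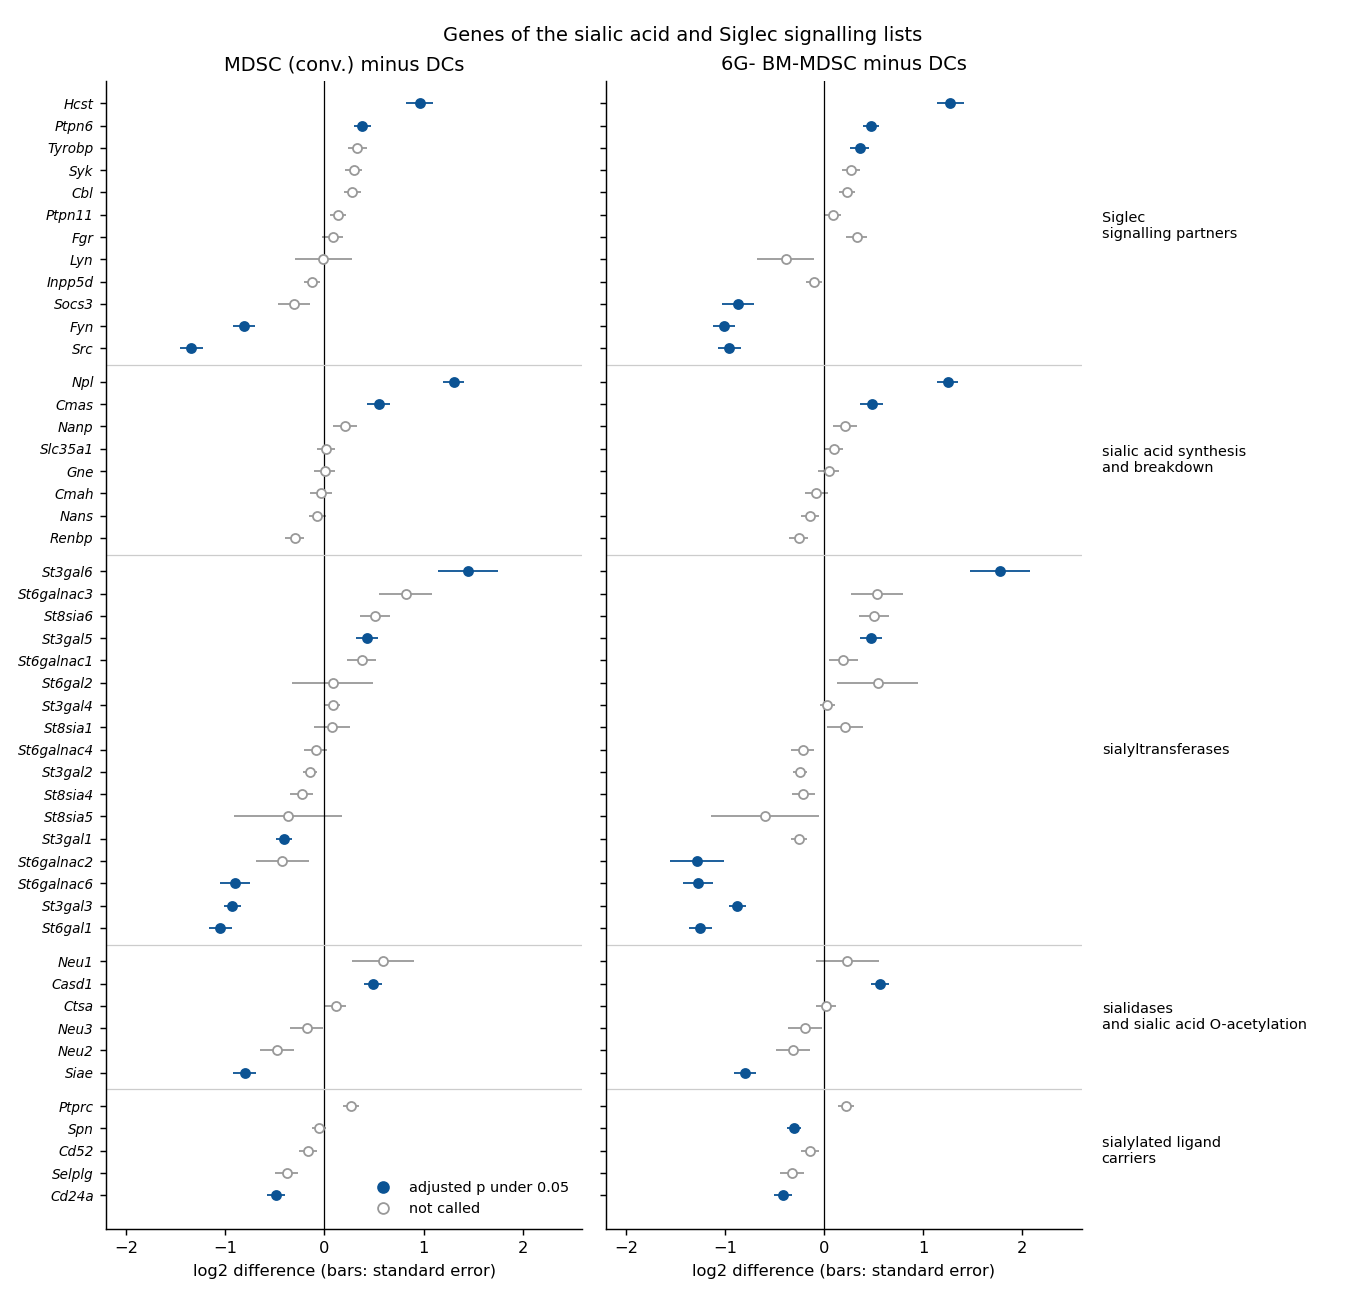
Log2 difference from DCs of genes on 5 lists around the Siglecs, with bars for the standard error. The left panel shows MDSC (conv.) and the right panel 6G- BM-MDSC. Filled points passed an adjusted p of 0.05 over all genes. St3gal6 lies farthest to the right in both panels, and Src, St6gal1 and St6galnac6 are among those farthest to the left. Both panels use the same 2 DC arrays.

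Markers of the cell types that the Siglecs are known from were read beside each member. For a list, the summed level is the sum of its genes' signals, each in units of the array's 75th percentile. Eosinophil markers did not differ in the direction of Siglecf: the summed level of 8 genes was 173 to 201 on the MDSC arrays and 89.9 to 113 in DCs, where Siglecf was higher. The granule genes Epx, Prg3 and Ear6 were called higher in both MDSC groups, and Prg2 in MDSC (conv.), at 1.59 ± 0.43 (limma adjusted p = 0.048) against 1.47 ± 0.43 (limma adjusted p = 0.055) in 6G- BM-MDSC. Epx, eosinophil peroxidase, had levels of 4.30 and 4.43 on MDSC (conv.) arrays, 4.51 and 4.11 on those of 6G- BM-MDSC and 2.77 and 1.20 on those of DCs. The chemokine receptor Ccr3, which defines mature eosinophils, had levels between -5.19 and -4.28.

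Most macrophage markers differed in the same direction as Siglec1 and Siglecf. Their summed level over 11 genes was 207 to 229 on the MDSC arrays and 343 to 354 in DCs, and 7 and 8 of the 11 were lower in the MDSC groups, with 1 higher. The complement genes C1qa, C1qb and C1qc had the largest differences of the list, for C1qa -4.10 ± 0.22 and -4.18 ± 0.22 in the same order of groups (limma adjusted p = 0.0006 for both). Vcam1 was higher in the MDSC groups, by 1.80 ± 0.18 and 1.74 ± 0.18 (limma adjusted p = 0.003 for both). The part of macrophages in the Siglec1 and Siglecf values was not tested.

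Plasmacytoid dendritic cell markers divided beside Siglech. The summed level of 8 genes was 24.7 to 25.9 on MDSC (conv.) arrays, 21.2 to 21.7 on those of 6G- BM-MDSC and 47.9 to 50.5 on those of DCs. Klk1 was lower in both MDSC groups, with -2.99 ± 0.09 and -3.55 ± 0.09 (limma adjusted p = 0.0002 for both), and Ccr9 and Ly6d were higher, Ccr9 by 2.02 ± 0.11 and 1.73 ± 0.11 (limma adjusted p = 0.0006 and 0.0009). Between the MDSC groups, 7 of the 8 had a difference below 0 for 6G- BM-MDSC against MDSC (conv.), with a median of -0.26, and the Siglech probe differed in the same direction by -1.95. By limma, neither Siglech nor any of the 8 was called there. An unadjusted limma p under 0.05 was reached by 3 of the 8, and by 2358 of 21865 genes over the whole array. The direction was not particular to this list: neutrophil markers lay below 0 for 12 of 12 genes (median -0.20) and B cell markers for 7 of 8 (median -0.17). Each of the other marker lists had at least 3 genes on either side of 0.

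B cell markers were higher in both MDSC groups for 5 of 8 genes, with a summed level of 3.81 to 4.44 on the MDSC arrays and 0.600 to 0.725 in DCs, whereas Siglecg and Cd22 did not separate the groups. Cd79b, a B cell receptor chain, was higher by 3.54 ± 0.16 and 3.43 ± 0.16 (limma adjusted p = 0.0004 for both). Osteoclast markers were mixed beside the unmeasured Siglec15, with 2 of 8 higher and 3 lower in each MDSC group. Of 8 monocyte markers, 3 were higher, 1 lower and 4 not called in MDSC (conv.), and 4 were higher and 4 not called in 6G- BM-MDSC, with median differences of 0.92 and 1.15. Among them Ly6c2, a monocyte surface antigen, was higher by 3.15 ± 0.12 and 3.03 ± 0.12 (limma adjusted p = 0.0003 for both). The part of these cell types in the Siglec values was not tested.

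**Figure D4:**
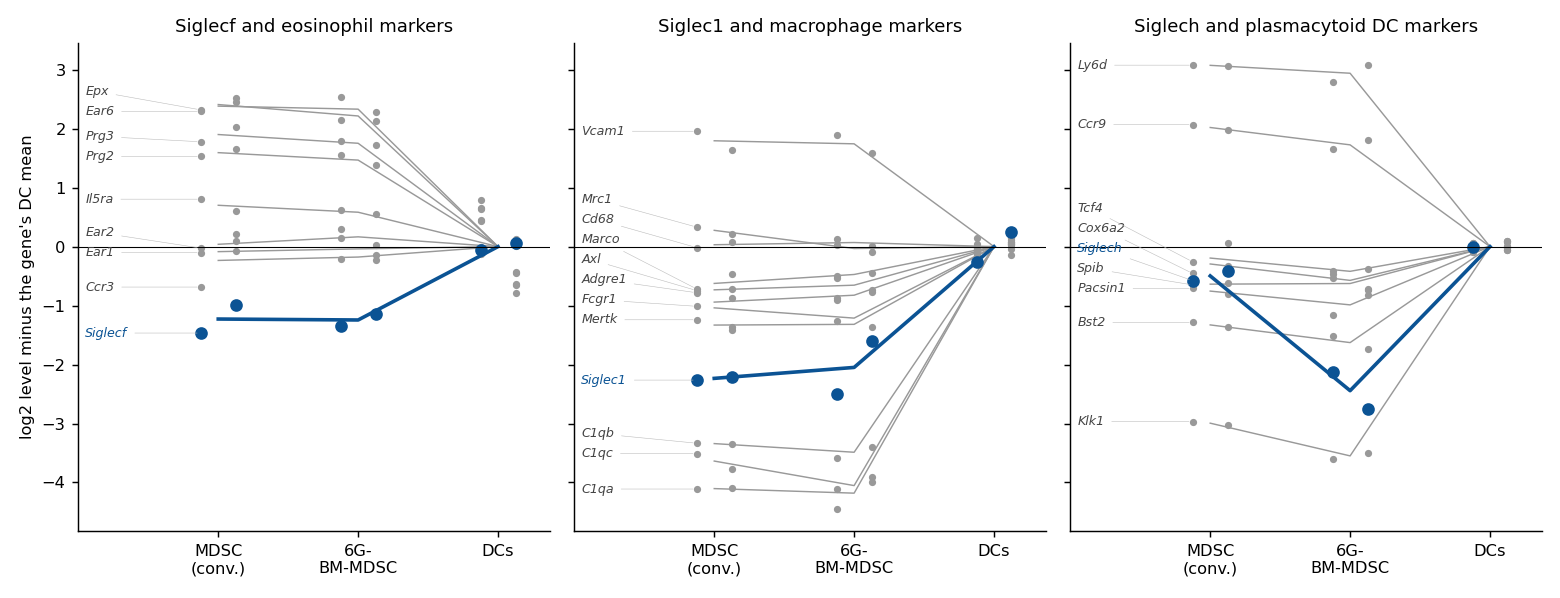
Log2 level on each array minus the gene's mean in DCs, for Siglecf with 8 eosinophil markers, Siglec1 with 11 macrophage markers and Siglech with 8 plasmacytoid dendritic cell markers. Points are arrays, lines join group means, and the Siglec is drawn in blue. Siglecf lies below 0 in both MDSC groups where Epx, Prg2, Prg3 and Ear6 lie above it, and Siglec1 lies between the C1q genes and the other macrophage markers that are below 0.

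The genes with the most similar profile over the 6 arrays were found by the root mean square of the difference, on the log2 scale, after each profile was centred on its own mean, among 14251 named genes. For Siglec1 these were Sobp at 0.23, Apoe, a lipid carrier that macrophages secrete in quantity, at 0.24, and Lpar3 at 0.26, set against a range of 2.75 for Siglec1 itself. For Siglecf they were Zdhhc1 at 0.09, Fads3 at 0.10 and Fgf13 at 0.11. For Cd33 they were Naa25 at 0.037, Fnip2 at 0.046 and Lnpk at 0.046, and for Siglece they were Proz at 0.016, Esd at 0.032 and Btbd19 at 0.035. For Siglecg they were Sgsm3, Fdxr and Lrch4, all at 0.02, set against a range of 0.23 for Siglecg itself. For the Siglech probe, over 5 arrays and with a range of 2.76, they were Nppb at 0.26, Dnah9 at 0.27 and Spem2 at 0.28. These 3 genes were dim, with levels between -6.87 and -2.82, whereas the Siglech probe lay between 3.37 and 6.13.

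Cd33 and Siglecf, which differed from DCs in opposite directions, had the longest run of bases in common among the member promoters compared. RefSeq promoter windows on build GRCm38.p6 were used for 5 of the members, with 6 windows in all. Siglec1 and Siglec15 were not among them. The 250 bases before the start were compared on the same strand. The run of 16 bases is shown in capitals within 60 bases of each window, and it starts 27 bases before the start of Siglecf and 157 bases before that of Cd33.
Siglecf, chr7:43351281-43351340, plus strand: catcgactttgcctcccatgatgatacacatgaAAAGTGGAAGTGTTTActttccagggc
Cd33, chr7:43533291-43533350, minus strand: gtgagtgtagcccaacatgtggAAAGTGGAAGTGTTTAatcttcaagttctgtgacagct

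Of 32851 mouse windows of the same length, 2 held this run on either strand, those of Siglecf and Cd33. The run was chosen because these 2 windows share it, and so long a run is rare in any case, so nothing is read from this count. The next longest run shared by 2 members was of 10 bases, between Siglecg and Siglece. The 16 bases contain GGAAGT, the core letters of an Ets-family site, which stood on either strand in 3 of the 6 Siglec windows (Cd33, Siglecf and Siglech) and in 19.7% of all windows. TGTGGT, the core letters of a Runx site, stood in 2 of the 6 (Cd33 and Siglech) and in 14.0% of all. A match describes the letters alone.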

How the data were processed

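Total RNA of the 6 samples was labelled with Cy3 from an oligo-dT primer and hybridised to one-colour Agilent mouse arrays. The deposited scanner files hold processed intensity values, which the authors' image software (Agilent Feature Extraction, 10.7.3.1 by the file headers, 10.5.1.1 by the submitters' processing notes) had background-subtracted. The file headers give design 074809, another than the study's methods name. The number of arrays limits the precision.

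With R 4.3.3, control and marked spots were left out, spots of 1 probe averaged, log2 taken and each array's 75th percentile subtracted. Of 56605 probes, 33487 were kept, those well above background on both arrays of at least 1 group. A gene was represented by its brightest probe (21865 genes), and 32994 probes were named through RefSeq. Groups were compared with limma 3.58.1 (lmFit, eBayes, 1 fit to all arrays, 3 residual degrees of freedom, prior 1.96), with Benjamini-Hochberg adjustment and a threshold of 0.05. Standard errors of genes come from that fit, and those of second probes from the same model fitted to single probes. The gene fit was also run on simulated data with normal noise of the spread it had estimated, so that run cannot test this spread.

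The members and lists were chosen with earlier results of these data known, so members carry no p. Named were all members, Cd22, Mag, up to 4 genes a list (largest called difference, then brightest) and the 3 nearest profiles of each member. The spread behind the p-values is that between these samples and may be technical. Alternatives were another background correction, normalization, filter, probe summary, prior, spot rule, sample set and source, the methods' t-test, a replicate block and leaving out each array. The deposited value table equalled the scanner values within 0.005. Among the list genes, 1 is counted but not reported here.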

Additional observations from a re-analysis of the deposited data

How the results depend on the processing

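No Siglec difference called in the main fit turned its direction in the alternatives where it had a value. Between the MDSC groups, the array-wide count of 3 became 9 with normexp, 1 with no filter, 0 where a probe had to be well above background on every array, 64 with an intensity-dependent prior variance, and 1783 (unadjusted) or 0 (adjusted) with the methods' t-test. Against DCs, no filter gave 11616 genes for MDSC (conv.) and 11950 for 6G- BM-MDSC, and the adjusted t-test gave 7 and 66. Siglecs called went to 0 in both comparisons with DCs by the adjusted t-test and to 3 for 6G- BM-MDSC by the unadjusted one, and between the MDSC groups to 1 with the intensity-dependent prior and 1 by the unadjusted t-test. Against DCs the t-test gave no result for Siglech, because 1 of its DC spots was left out. Where a probe had to be well above background on every array, Siglec1 was not tested and the Siglecs called against DCs were 3 for MDSC (conv.) and 4 for 6G- BM-MDSC. Pathway genes called went to 0 in both comparisons with DCs by the adjusted t-test and to 2 between the MDSC groups by the unadjusted one.

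Leaving out each array in turn gave 2653 to 5284 genes for MDSC (conv.) against DCs, 3645 to 5864 for 6G- BM-MDSC against DCs and 2 to 85 between the MDSC groups. Pathway genes called were then 8 to 13, 9 to 15 and 0, and Siglecs called 2 to 4, 3 to 5 and 0. Deviations of same-numbered arrays correlated at 0.114, 0.125 and 0.0415 between groups. With 2 arrays per group this cannot show whether the numbers pair the samples, and the labels do not say. With the replicate block the counts were 5965, 6861 and 3 genes, and 4, 5 and 0 Siglecs. With the repeat-bearing Siglech probe left out, an alternative added after seeing the data, 4 Siglecs were called for 6G- BM-MDSC against DCs.

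Signal over background sets a limit for Siglec1, whose difference from DCs ranged from -2.49 to -0.78 for MDSC (conv.) over the settings, and for Siglech, Siglec15 and the second Cd33 probe, where signals near background or a repeat leave the level unsettled. Siglecf ranged from -1.47 to -0.99, Cd33 from 0.63 to 0.85 and Siglece from 0.39 to 0.56 in the same comparison.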
